A study of Mus musculus with 7 samples.

Results

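Nras, Hras and Myc are 3 growth-control genes followed here by symbol through single-cell transcript counts of 7 mouse liver tumour samples, 3 of the 55357 features that the count tables list. Nras carries the identifier ENSMUSG00000027852, Hras ENSMUSG00000025499 and Myc ENSMUSG00000022346. All 7 samples, labelled HCC (hepatocellular carcinoma) tissue, came from livers that received Nras and C-myc plasmids by hydrodynamic tail vein injection, in which a large volume of fluid drives DNA into hepatocytes, and were taken 2 weeks later. The 4 treated samples had been co-injected with a plasmid for an IL-2/CD25 fusion protein, which joins the cytokine IL-2 to its receptor chain CD25, and the 3 controls had not. The labels name no strain, age or promoter, do not say which allele of Nras was used, and do not say whether the samples came from separate animals, so p-values measure only the spread between these samples. The tables give 1 value per gene, so transcripts of the injected plasmids and of the mouse's own Nras and Myc cannot be told apart. Hras was not injected.

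RAS proteins are small GTPases that sit at the inner face of the cell membrane, bind GTP after growth factor signals and switch on the RAF, MEK and ERK kinases as well as PI3 kinase and RAL pathways. NRAS and HRAS are close relatives with different membrane anchors and are locked in the GTP-bound state by oncogenic mutations. MYC is a transcription factor that pairs with MAX at E-box DNA sites and raises genes of ribosome production, nucleotide and polyamine synthesis and the cell cycle. In hepatocytes, activated RAS together with MYC gives rise to liver tumours in mice, and in lymphocytes MYC is a short-lived early gene of activation by antigen and cytokines, IL-2 among them.

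The promoters of the mouse's own Nras and Hras are printed to show the sequence setting of the RAS genes whose level is followed beside Myc, and they say nothing of the plasmids' promoters. They are RefSeq sequences of build GRCm38.p6, 250 bases before to 50 bases after the gene's start, read 5′ to 3′ on the gene's own strand. Capitals mark CACGTG, the E-box that MYC and MAX bind best, and the GC box CCGCCC in either direction. The Nras window lies at chr3:103058035-103058334 on the plus strand and the Hras window at chr7:141193955-141194254 on the minus strand.
Nras: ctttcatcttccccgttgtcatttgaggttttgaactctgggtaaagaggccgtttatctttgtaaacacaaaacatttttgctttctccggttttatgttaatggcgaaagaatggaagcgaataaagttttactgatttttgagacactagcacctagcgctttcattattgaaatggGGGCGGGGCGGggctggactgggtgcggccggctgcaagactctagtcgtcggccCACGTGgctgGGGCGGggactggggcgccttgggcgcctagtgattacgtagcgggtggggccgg
Hras: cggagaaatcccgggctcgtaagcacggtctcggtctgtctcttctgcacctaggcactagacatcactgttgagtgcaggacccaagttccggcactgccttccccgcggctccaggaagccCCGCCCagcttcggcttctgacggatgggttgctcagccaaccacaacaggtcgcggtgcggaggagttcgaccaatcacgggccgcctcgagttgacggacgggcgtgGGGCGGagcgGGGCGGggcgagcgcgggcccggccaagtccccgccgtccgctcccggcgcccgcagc
The Nras window holds 1 CACGTG, 15 bases before the start, and 3 GC boxes, 2 of which share bases, and has a GC content of 52.3%. The Hras window holds no CACGTG and 3 GC boxes and has a GC content of 69.0%. Over 32851 mouse promoter windows of the same length, CACGTG occurred in 7.15% and the GC box in 35.7% on either strand, with a median GC content of 52.7%. A match describes letters only.

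The 7 libraries held 62304 cells after filtering, of 62930 barcodes, with 37653600 to 181755269 unique molecular identifiers (UMIs, each standing for 1 captured transcript) per sample and median depths of 3215 to 8724 UMIs per cell. Pairs of libraries shared 14 to 37 cell barcodes over 21 pairs. Cells were assigned to gates by marker genes, and cells of more than 1 lineage, 142 to 425 per sample, were left out as likely doublets. The keratin gate described next was applied last and kept its cells whatever other lineage markers they held. Likely doublets were therefore not removed from that gate. Levels are CPM, the UMIs of a gene scaled to 1000000 UMIs of the summed cells.

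Tumour cells were taken as cells with at least 10 UMIs of Krt8 and Krt18, the paired keratins of liver epithelium. This gave 3816 cells, of which control samples 1, 2 and 3 held 684, 419 and 2562 and treated samples 1 to 4 held 56, 15, 75 and 5. The markers of these cells differed between groups. Cdkn2a, a cell cycle inhibitor switched on by oncogenes, stood at 468, 534 and 527 CPM in the controls and at 20.5, 33.9, 13.6 and 0 CPM in the treated samples. Epcam, a bile duct marker, stood at 7.33, 8.78 and 9.81 CPM in the controls against 688, 199, 332 and 134 CPM, and the hepatocyte product Alb at 19.5, 24.3 and 11 CPM against 385, 3630, 5687 and 2626 CPM. Other bile duct markers did not all follow Epcam: Krt19 stood at 254, 294 and 296 CPM against 1942, 102, 1296 and 258 CPM, and Krt7 at 610, 647 and 674 CPM against 311, 23.9, 234 and 186 CPM. Afp and Gpc3, looked at as liver tumour markers, did not both follow Cdkn2a. Afp stood at 128, 133 and 125 CPM in the controls against 21.8, 277, 55.0 and 0 CPM, with treated sample 2 above every control. Gpc3 stood at 0.389, 1.94 and 2.14 CPM against 41.7, 0, 121 and 465 CPM. The treated cells thus carried more Epcam and Alb and far less Cdkn2a, with Afp and Gpc3 mixed. The gate is therefore called keratin-high cells and not tumour cells in what follows. Ptprc, which encodes the leukocyte surface protein CD45, had a UMI in 63.0, 50.8 and 56.2% of the control cells of the gate and in 64.3, 60, 64 and 80% of the treated ones. Its level was 41.0, 30.0 and 34.1 CPM against 82.1, 109.5, 108 and 134 CPM, and the part of leukocyte RNA in the differences of this gate was not tested.

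In control keratin-high cells Nras and Myc were among the abundant transcripts, at levels that hardly differed between samples. Nras stood at 3154, 3122 and 3131 CPM, a mean of 3135 ± 16.5 (SD, n = 3), from 67555 to 435587 UMIs per sample. Myc stood at 2272, 2438 and 2053 CPM, a mean of 2255 ± 193, and Hras at 195, 159 and 230 CPM, a mean of 195 ± 35.4. The ratio of Myc to Nras UMIs, compared between samples and not as a level of 1 gene against the other, was 0.720, 0.781 and 0.656, and the ratio of Nras to Hras UMIs was 16.1, 19.6 and 13.6. All 3 control samples kept similar proportions although the third held several times more keratin-high cells. Control cells just inside the gate, with 10 to 12 keratin UMIs, had 943, 1937 and 351 CPM of Nras, and those just outside, with 7 to 9, had 440, 478 and 278 CPM.

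Keratin-high cells of treated samples held far less of the injected genes. Nras stood at 192, 446, 265 and 72.4 CPM in treated samples 1 to 4, each below every control. Myc stood at 50.7, 55.7, 43.6 and 0 CPM, where the 0 comes from 5 cells and allows a level of up to 31.0 CPM, and Hras at 94.9, 221, 85.0 and 134 CPM, a range that overlaps the controls. Most of the treated UMIs of Nras lay in few cells, since the 2 highest cells held 152 of 299 in sample 1, 182 of 224 in sample 2 and 273 of 371 in sample 3. For Myc the 2 highest cells held 70 of 79, 16 of 28 and 52 of 61 UMIs. Cells with at least 10 UMIs of both genes numbered 535, 302 and 2082 in the controls, of which 529, 290 and 2077 were keratin-high, and 2, 1, 2 and 0 in the treated samples, all of them keratin-high.

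The keratin-high cells of treated samples 1 and 3, the only ones with at least 20 cells, were tested against the 3 controls by edgeR's quasi-likelihood test on summed counts. Of 16786 genes, 34.1% were called lower and 28% higher in treated samples at an adjusted p under 0.05. All 3 members fell: Nras by a log2 change of -4.59 (SE 0.17, adjusted p = 4.28e-05), Hras by -1.92 (SE 0.18, adjusted p = 0.000277) and Myc by -6.39 (SE 0.18, adjusted p = 4.16e-05). On mean CPM the controls were 13.7-fold higher for Nras, 2.16-fold for Hras and 47.8-fold for Myc. Scaling by summed UMIs alone, which moved the median change of all genes from -0.13 to 0.68, gave -3.78, -1.11 and -5.57, still lower in edgeR for all 3 members (Hras adjusted p = 0.00267). This comparison sets cells of different marker content side by side, and a smaller share of tumour cells within the gate and less RNA of these genes per tumour cell cannot be told apart in the sums.

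**Figure D1:**
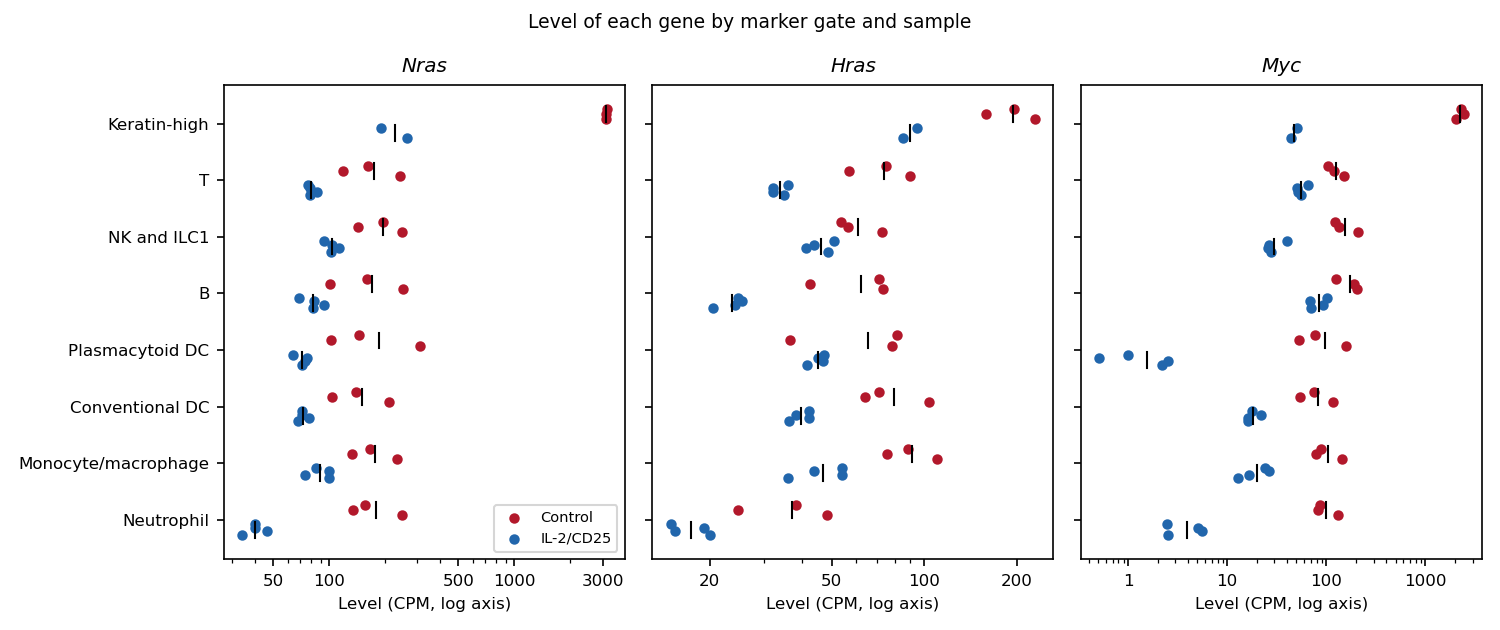
Level of Nras, Hras and Myc (CPM, log axis) in 8 marker gates, 1 point per sample with at least 20 cells in the gate, controls in red and IL-2/CD25 samples in blue; black bars are group means. Control keratin-high cells sit near 3135 CPM of Nras and 2255 CPM of Myc, and the treated plasmacytoid dendritic cells (DC) and neutrophils lie lowest for Myc.

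The cell-to-cell relation of the genes was read in control keratin-high cells thinned to 10000 UMIs each, which left 498, 286 and 2163 cells at 1 common depth. Nras averaged 31.6, 30.3 and 29.2 UMIs per thinned cell and Myc 23.1, 23.9 and 19.9. Both genes had a UMI in 98.6, 96.9 and 96.9% of the cells, and neither in 0.201, 1.05 and 0.277%. Co-detection was thus close to complete in every control sample. In the monocyte and macrophage gate at the same depth, Nras had a UMI in 79.0, 71.7 and 89.8% of control cells and in 61.0, 57.1 and 62.9% in treated samples 1, 2 and 4, the treated samples with at least 20 such cells. Myc had one in 54.0, 49.1 and 74.6% of control cells and in 9.76, 23.8 and 17.1%, so single UMIs separate the gates poorly and the mean level separates them well.

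Nras and Myc rose and fell together from cell to cell. Pearson's r of thinned UMIs was 0.781, 0.786 and 0.728 in control samples 1 to 3, a mean of 0.765 ± 0.0323, and Spearman's rho was 0.696, 0.715 and 0.709. The 25% of cells with the fewest Nras UMIs averaged 8.99, 6.65 and 8.23 Nras UMIs and 9.48, 9.07 and 7.69 Myc UMIs, and the 25% with the most averaged 65.8, 65.5 and 54.7 Nras UMIs and 42.0, 44.6 and 33.6 Myc UMIs. Myc thus rose several-fold across the range of Nras, by a smaller factor than Nras itself. Keratin UMIs did not follow: they averaged 47.1, 54.9 and 38.9 in the cells with the fewest Nras UMIs and 40.4, 39.2 and 43.8 in those with the most. The spread between cells was wide for both genes, with coefficients of variation of 0.856, 0.920 and 0.685 for Nras, where counting alone gives 0.178, 0.182 and 0.185, and of 0.902, 0.910 and 0.750 for Myc, where counting gives 0.208, 0.205 and 0.224. Most of it exceeds counting error. The log2 ratio of Myc to Nras UMIs within a cell had a median of -0.45, -0.43 and -0.56 and a 10th to 90th percentile range of -1.4 to 0.5 in sample 1, -1.41 to 0.88 in sample 2 and -1.5 to 0.32 in sample 3, over the 440, 245 and 1865 cells with at least 5 UMIs of each.

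Hras showed next to no correlation with Nras or Myc in thinned control cells. It had few UMIs per cell, where counting error lowers any r, and that part was not tested. The r of Hras with Nras was 0.0531, 0.00546 and 0.0560 and with Myc 0.00902, -0.0419 and 0.000355. Hras averaged 1.77, 1.07 and 1.92 UMIs in the cells with the fewest Nras UMIs and 1.89, 1.27 and 2.15 in those with the most. At a mean of 1.88, 1.40 and 2.10 UMIs per thinned cell its coefficients of variation of 0.882, 0.950 and 0.782 lay closer to the 0.730, 0.847 and 0.690 that counting gives than those of Nras and Myc did to theirs. Without thinning, where depth links every pair of genes, the mean r was 0.872 for Nras with Myc, 0.592 for Nras with Hras and 0.543 for Hras with Myc. In treated samples 1 and 3, r of Nras with Myc was 0.783 and 0.755 over 48 and 55 cells, and Spearman's rho was 0.212 and 0.139. For Nras with Hras the same cells gave an r of 0.324 and 0.608 and a rho of 0.197 and 0.205, so by rank the pairs were alike at this setting. They were alike on raw UMIs too. At 5000 UMIs per cell rho was 0.450 and 0.296 with Myc against -0.101 and 0.0423 with Hras. With keratin of at least 1000 CPM it was 0.504 and 0.458 against 0.0168 and 0.0939. With at least 20 keratin UMIs it was 0.398 and 0.251 against 0.258 and -0.0943.

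**Figure D2:**
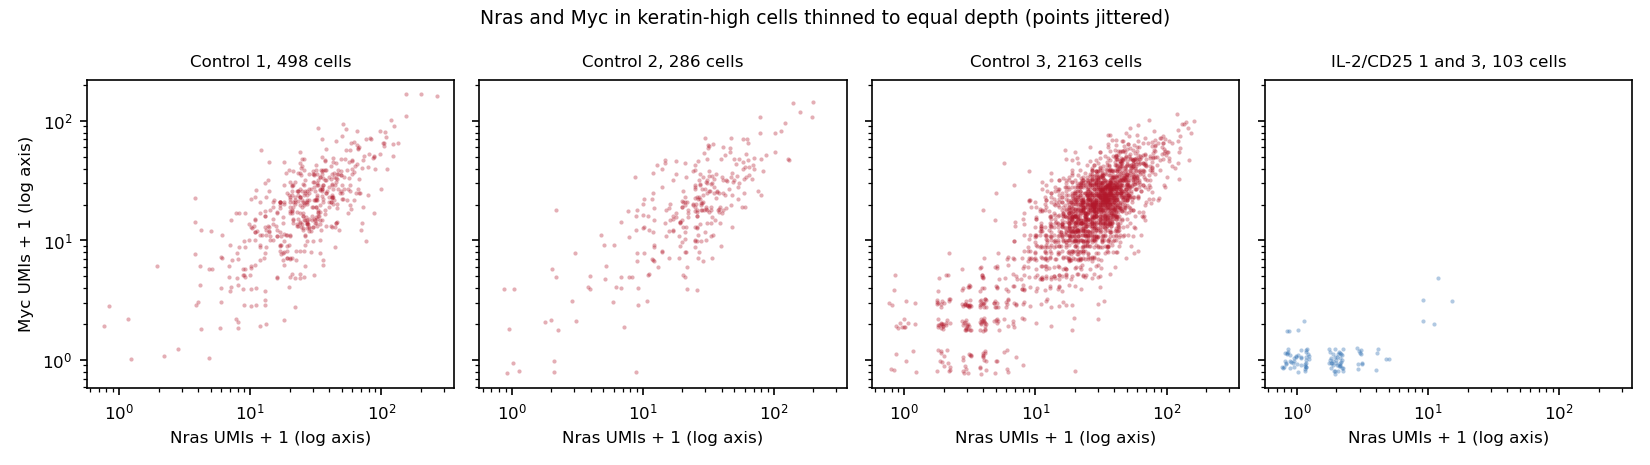
Nras against Myc in single keratin-high cells, in UMIs per cell after thinning to 10000 UMIs, for each control sample and for the treated samples with enough cells; each point is a cell. Control cells spread along a rising band (r of 0.781, 0.786 and 0.728), and all but a few treated cells lie near 0 on both axes.

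Dividing cells of the gate, those with at least 2 UMIs of Mki67 and Top2a, held somewhat more of all 3 members in each control sample. Nras stood at 3218, 3442 and 3203 CPM in them against 2888, 2348 and 2696 CPM in the other keratin-high cells. Myc stood at 2316, 2609 and 2083 against 2089, 2026 and 1872 CPM, and Hras at 206, 171 and 238 against 150, 130.1 and 182 CPM. The dividing cells were also deeper, with medians of 76148, 78480 and 56296 UMIs against 10172, 9388 and 15113, partly because the threshold in UMIs picks deeper cells, and the part of depth in the difference was not tested.

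Summed over all cells of a sample, each member was lower in every treated sample than in every control. Nras stood at 1266, 987 and 2461 CPM in the controls and at 84.8, 92.0, 98.7 and 86.4 CPM in the treated samples. Hras stood at 122, 93.0 and 199 against 43.7, 40.2, 38.0 and 40.4 CPM, and Myc at 894, 757 and 1611 against 47.7, 37.8, 39.6 and 37.5 CPM. The groups did not overlap for any of the 3. Keratin-high cells held a mean of 2.25% of all UMIs in treated samples against 47.2% in controls, so the sums compare different cell mixtures. The share of all genes without overlap in such sums is not given here, and whether the gap is particular to the 3 was not tested. The differences of means were -1481 CPM for Nras, -97.2 CPM for Hras and -1046 CPM for Myc, each with p = 0.0286 in an exact two-sided permutation test over 35 splits, the smallest value these allow, and 0.0286 after Benjamini-Hochberg adjustment over the 3. Keratin-high cells held 92.8% ± 4.2 of the Nras UMIs, 94.1% ± 3.29 of the Myc UMIs and 65.3% ± 20.9 of the Hras UMIs of the controls, against 47.2% of all UMIs, and 6.24, 2.51 and 6.11% of them in treated samples. Outside that gate the means were 192 ± 58.2 against 86.7 ± 5.13 CPM for Nras, 80.9 ± 14.9 against 39.0 ± 2.36 CPM for Hras and 115 ± 36.0 against 40.6 ± 4.77 CPM for Myc, again with p = 0.0286 in the exact permutation test.

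In treated samples, where keratin UMIs were at 0 to 16.3 CPM in the 7 immune gates, the immune cell types could be ordered by each member. Nras lay lowest in neutrophils, at 39.8, 39.7, 46.4 and 33.9 CPM, below every treated sample of every other immune gate. It lay highest in NK cells and ILC1 (innate lymphocytes gated together), at 93.4, 104, 114 and 102 CPM, which overlapped with monocytes and macrophages at 85.3, 100.3, 74.2 and 99.7 CPM. T cells, B cells, plasmacytoid and conventional dendritic cells filled the range of 64.0 to 94.2 CPM between them and overlapped with their neighbours in that order. Nras was thus spread fairly evenly over the lymphoid and dendritic gates.

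Myc spanned a far wider range than Nras across the same treated gates. B cells held most, at 103, 68.7, 92.2 and 70.3 CPM, and T cells followed at 65.6, 50.2, 52.3 and 55.1 CPM without overlap. NK cells and ILC1 at 40.1, 26.5, 25.7 and 27.5 CPM lay below T cells and overlapped with monocytes and macrophages. Conventional dendritic cells at 17.9, 21.8, 16.1 and 16.4 CPM overlapped with monocytes and macrophages at 24.1, 26.3, 16.6 and 12.7 CPM. Neutrophils stood at 2.49, 5.12, 5.63 and 2.51 CPM from 2 to 4 UMIs per sample, and plasmacytoid dendritic cells at 1.00, 0.513, 2.55 and 2.19 CPM, from 10 UMIs in 867 cells. Myc in these last gates was close to the limit of detection.

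Hras was lowest in neutrophils, at 14.9, 19.2, 15.5 and 20.1 CPM, and B cells stood next at 24.7, 25.5, 24.1 and 20.5 CPM without overlap. T cells stood at 35.9, 32.3, 32.1 and 35 CPM, and the dendritic, NK and monocyte gates held 36.1 to 53.8 CPM with overlap among them. Hras therefore ordered B and T cells in the reverse of Myc.

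Within treated T cells, Myc was higher in CD8 T cells, the killer lineage, than in CD4 T cells without Foxp3. The 3505 CD8 cells held 73.0, 62.8, 68.7 and 64.8 CPM of Myc, and the 905 CD4 cells without Foxp3 held 34.3, 23.3, 35.9 and 43.0 CPM, with no overlap. The 880 cells with Foxp3, the regulatory T cell factor, held 34.2, 51.2, 47.1 and 45.7 CPM of Myc, also below every CD8 value. The largest group, 6516 T cells with no UMI of the CD4, CD8 or Foxp3 genes, held 71.0, 48.0, 46.3 and 52.6 CPM. Its range overlapped with that of CD8 cells. For Hras the order differed, since Foxp3 cells held 54.5, 53.7, 32.5 and 49.4 CPM, a mean of 47.5 ± 10.3, and CD8 cells a mean of 28.8 ± 2.87 CPM. Nras was alike in the CD8, CD4 and Foxp3 subsets within its spread, at means of 79.1 ± 5.95 CPM in CD8, 71.1 ± 9.17 in CD4 without Foxp3 and 77.9 ± 6.95 in Foxp3 cells.

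Within every immune gate the 3 members read higher in the controls, and keratin UMIs moved with them. Krt8 and Krt18, which immune cells lack, stood at 100.4 to 441 CPM in the control immune gates and at 0 to 16.3 CPM in the treated ones. In droplet data, free RNA of lysed cells is counted in every droplet. In T cells, Nras stood at 163, 120 and 242 CPM in the controls against 77.0, 79.2, 86.4 and 79.0 CPM with IL-2/CD25, which is -1.28 on the log2 scale (SE 0.19, edgeR adjusted p = 0.000325), where edgeR called 24.9% of 13928 genes lower and 22.3% higher. The log2 change of Hras was -1.28 (SE 0.15, adjusted p = 6.45e-05) and that of Myc -1.29 (SE 0.15, adjusted p = 8.83e-05) in the same edgeR fit. Hras stood at 74.9, 56.9 and 89.5 against 35.9, 32.3, 32.1 and 35 CPM, and Myc at 103.5, 119 and 152 against 65.6, 50.2, 52.3 and 55.1 CPM. The third control sample was the highest for each of the 3 genes in T cells.

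The other gates gave the same direction with different sizes. In NK cells and ILC1, where edgeR called 20% of genes lower and 20% higher, Nras changed by -0.90 (adjusted p = 0.000306), Hras by -0.43 (adjusted p = 0.0458) and Myc by -2.38 (adjusted p = 8.86e-06) on the log2 scale. In B cells, with 19.4% lower and 14.5% higher, the edgeR changes were -1.37 (adjusted p = 0.000372), -1.70 (adjusted p = 3.31e-05) and -1.24 (adjusted p = 0.000387) for Nras, Hras and Myc. Hras control and treated levels in NK cells, 53.7, 56.5 and 73.0 against 50.9, 43.9, 41.2 and 48.5 CPM, were the closest without overlap among the gates. In plasmacytoid dendritic cells, with 11.6% lower and 8.62% higher, the changes in edgeR were -1.44 (adjusted p = 0.000868), -0.67 (adjusted p = 0.0351) and -5.91 (adjusted p = 2.44e-07), and the groups overlapped for Hras, at 81.8, 36.5 and 78.5 against 47.0, 45.1, 46.9 and 41.6 CPM. In conventional dendritic cells, with 25.8% lower and 25% higher, they were -1.13 (adjusted p = 0.000688), -1.06 (adjusted p = 0.000359) and -2.24 (adjusted p = 2.94e-05) in edgeR.

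The myeloid gates closed the range. In monocytes and macrophages edgeR called 26% of genes lower and 26.9% higher, and Nras changed by -1.12 (adjusted p = 0.000474), Hras by -1.12 (adjusted p = 0.000227) and Myc by -2.56 (adjusted p = 2.82e-05). In neutrophils, with 28% lower and 24.7% higher, the edgeR changes were -2.53 (adjusted p = 1.14e-06) for Nras, -1.44 (adjusted p = 0.000551) for Hras and -5.02 (adjusted p = 6.78e-08) for Myc, whose control levels of 86.1, 83.2 and 130.1 CPM stood against 2.49 to 5.63 CPM. Each member was thus called lower in 7 of 7 immune gates on the counts as deposited. For Hras the call in NK cells was lost, at similar log2 changes, with DESeq2 (-0.44, adjusted p = 0.0535), with scaling by summed UMIs alone (-0.37, edgeR adjusted p = 0.0562) and with no low-count filter (-0.30, edgeR adjusted p = 0.146). In plasmacytoid dendritic cells it was lost with DESeq2 (-0.64, adjusted p = 0.145), with that scaling (-0.58, edgeR adjusted p = 0.0627) and with the replicate number as a block (-0.58, edgeR adjusted p = 0.0801).

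The ratio of member to keratin UMIs in control immune gates was set beside that of the keratin-high cells. Per 100 keratin UMIs, keratin-high cells held 63.2 ± 4.57 Nras, 45.3 ± 2.67 Myc and 3.95 ± 0.920 Hras UMIs (n = 3). Neutrophils held 72.0 ± 8.76 Nras and 40.8 ± 8.63 Myc UMIs, and plasmacytoid dendritic cells 78.8 ± 10.8 and 41.2 ± 5.29, each within reach of the keratin-high ratio. For Hras the ratio in neutrophils, 14.8 ± 2.10, and in plasmacytoid dendritic cells, 30.5 ± 12.4, exceeded that of keratin-high cells several-fold. Other gates held 64.7 to 102 Nras and 46.7 to 73.4 Myc UMIs per 100 keratin UMIs. Nearest of all immune gates to the keratin-high ratio were B cells for Nras (64.7 ± 9.83) and conventional dendritic cells for Myc (46.7 ± 7.94).

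When each gate's keratin UMIs, times the member to keratin ratio of the sample's keratin-high cells, were subtracted from the member's UMIs, edgeR called Nras lower in 0 of 7 immune gates, Myc in 0 of the 5 where it could still be tested, and Hras in 5 of 7. Nras then turned to a higher level in treated samples in each gate, with log2 changes of 0.58 to 3.16, of which B cells (3.16, adjusted p = 0.000151), conventional dendritic cells (1.14, adjusted p = 0.0047) and NK cells (0.96, adjusted p = 0.0471) passed in edgeR. Subtracted counts below 0 were set to 0. In control sample 3 this set Nras to 0 in the T, NK, B and neutrophil gates. These held 61.2, 60.2, 56.8 and 64.8 Nras UMIs per 100 keratin UMIs, against 65.0 in that sample's keratin-high cells. The sizes and adjusted p-values of the turned changes thus rest partly on control counts of 0. Myc gave 0.99 in T cells, 1.13 in B cells, 2.53 in conventional dendritic cells, 0.01 in monocytes and macrophages and -0.88 in NK cells. It passed in edgeR in conventional dendritic cells (adjusted p = 0.0201) and fell under the low-count filter in plasmacytoid dendritic cells and neutrophils. Control Myc was set to 0 in conventional dendritic cells of samples 1 and 3 and in T cells of sample 3. These conventional dendritic cells held 47.90 and 38.3 Myc UMIs per 100 keratin UMIs, against 47.96 and 42.6 in keratin-high cells. The T cells of sample 3 held 38.4. The Myc changes in these 2 gates thus rest partly on control counts of 0. Hras kept its direction in all 7 gates, at -1.07 in T cells, -1.41 in B cells, -0.92 in conventional dendritic cells, -0.99 in monocytes and macrophages and -0.94 in neutrophils, all called by edgeR, and at -0.21 in NK cells (adjusted p = 0.316) and -0.44 in plasmacytoid dendritic cells (adjusted p = 0.163), not called. The direction thus turned for Nras in each gate and for Myc in T, B and conventional dendritic cells. For Myc in monocytes and macrophages the sign turned too, at next to no change (0.01). Keeping only cells with no keratin UMI gave another picture, since Nras and Myc were then still called lower in 7 of 7 gates. The share of all genes called lower among such cells is not given here. T cells with no keratin UMI gave -1.20 for Nras (edgeR adjusted p = 0.000356) and -1.17 for Myc (adjusted p = 0.000142), near the values over all T cells. For Hras they gave -0.74 (edgeR adjusted p = 0.0118). Hras in NK cells was 0.079 among such cells (edgeR adjusted p = 0.896), and was not called in plasmacytoid dendritic cells either (-0.89, adjusted p = 0.236). A cell with no keratin UMI can still hold free RNA. Control B cells, for example, had medians of 1791 to 2478 UMIs at 165 to 441 CPM of keratin, so many would show no keratin UMI by counting alone. How much free RNA that filter removed was not tested. The subtraction takes free RNA to hold these genes in the ratio found in intact keratin-high cells, which was not tested.

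**Figure D3:**
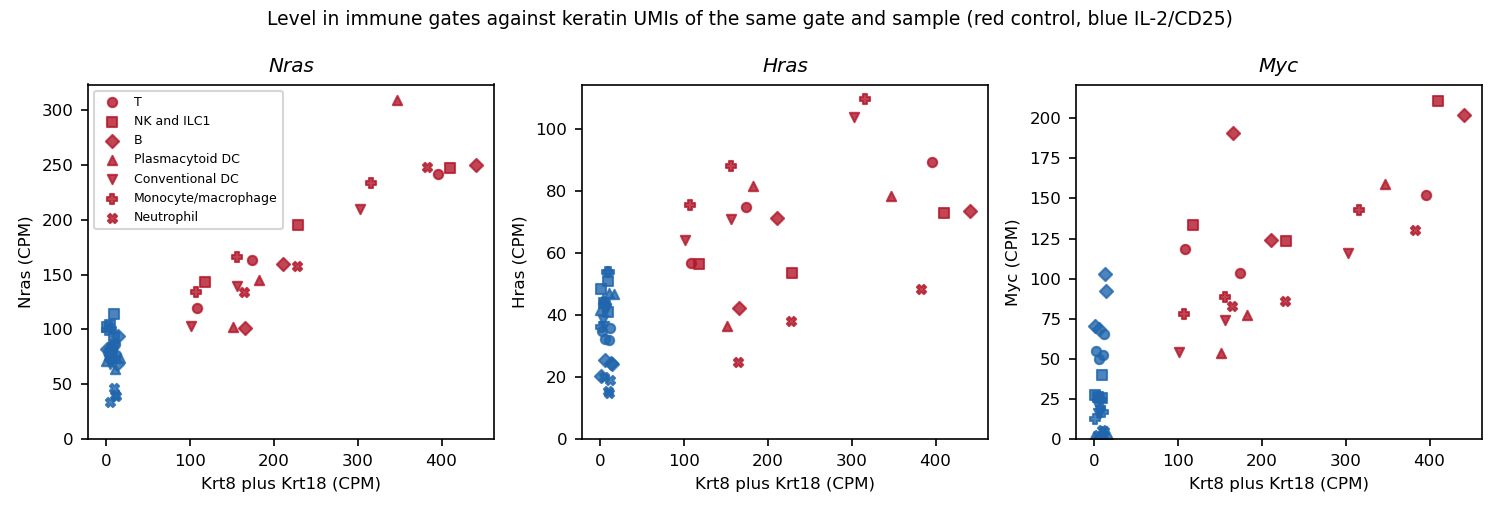
Level of Nras, Hras and Myc (CPM, vertical) against the summed level of Krt8 and Krt18 (CPM, horizontal) in the 7 immune gates, 1 point per gate and sample, controls in red and IL-2/CD25 samples in blue. Treated points sit at 0 to 16.3 CPM of keratin and control points at 100.4 to 441 CPM, so the groups do not overlap on the keratin axis.

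**Figure D4:**
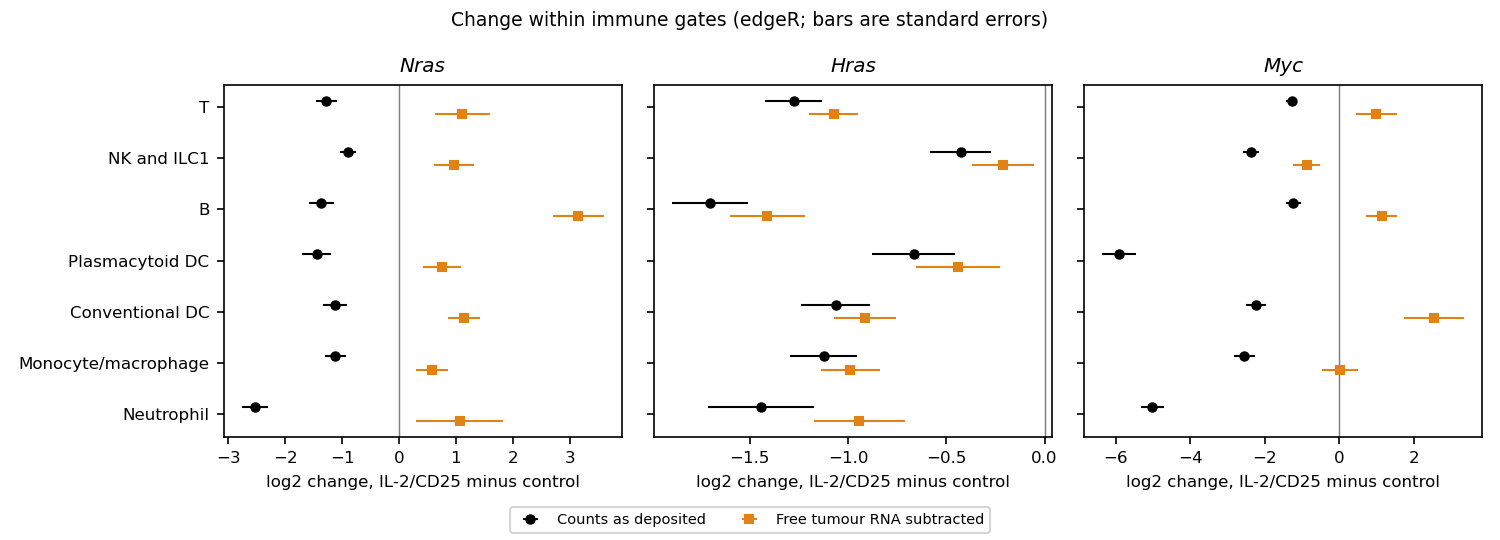
Change of each member within the 7 immune gates (log2, IL-2/CD25 minus control, edgeR), on the counts as deposited (black circles) and after subtraction (orange squares). What was subtracted is free RNA of keratin-high cells as estimated from keratin UMIs, labelled free tumour RNA in the figure. Bars are standard errors, and Myc has no square where the low-count filter removed it. Black circles lie below 0 in every panel, while the orange squares of Nras lie above 0 and those of Hras below. Subtracted counts below 0 were set to 0.

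Most measured genes of a MYC response list were called lower in treated samples in every gate. The MYC response list, 20 genes of ribosome production, polyamine and nucleotide synthesis and metabolism, had 20 of 20 called lower in keratin-high cells, with a median log2 change of -3.18 against -0.13 over all genes. Srm, which makes the polyamine spermidine, went from 408 to 23.6 CPM (log2 change -4.90), Ldha, the lactate-forming enzyme, from 2306 to 248 CPM (-4.03), and Cad, the first enzyme of pyrimidine synthesis, from 110.5 to 12.7 CPM (-3.91). All 20 stayed lower under scaling by summed UMIs alone. In immune gates the list had 18 of 20 lower in T cells, 19 in NK cells, 19 in B cells, 18 in conventional dendritic cells and 20 in monocytes and macrophages, 11 of 18 in plasmacytoid dendritic cells and 15 of 15 in neutrophils, with none higher. After the subtraction was applied to every gene, 17, 18, 15, 17 and 18 were called lower in the first 5 of these gates (with 1 higher in T cells), 7 in plasmacytoid dendritic cells and 4 of 9 in neutrophils. List medians in the first 5 gates were then -0.90, -1.05, -1.04, -0.77 and -0.76. Over all genes they were 0.042, 0.044, 0.0094, 0.0059 and 0.022. The share of all genes called in that setting is not given here. Myc itself read 0.92 in T cells, 1.04 in B cells and 2.47 in conventional dendritic cells after the subtraction. In these gates the list and Myc thus differed in direction under that setting. The Myc values in T cells and conventional dendritic cells rest partly on control counts set to 0. Srm in T cells stood at 71.7 against 22.7 CPM (-1.78) and in NK cells at 62.2 against 6.37 CPM (-3.26).

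Across thinned control keratin-high cells, 20 of 20 MYC response genes had a positive mean r with Myc, from 0.0309 to 0.459 with a median of 0.177, where 45.4% of all genes did. With Nras 20 of 20 were positive too (median 0.194), and with Hras 20 of 20 (median 0.146), where 49.1% and 55.1% of all genes were. Npm1, a nucleolar ribosome assembly protein, had the highest r outside the members with both Myc (0.459) and Nras (0.404). None of the 8 measured genes of the RAS family list was positive with Nras or Myc.

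**Figure D5:**
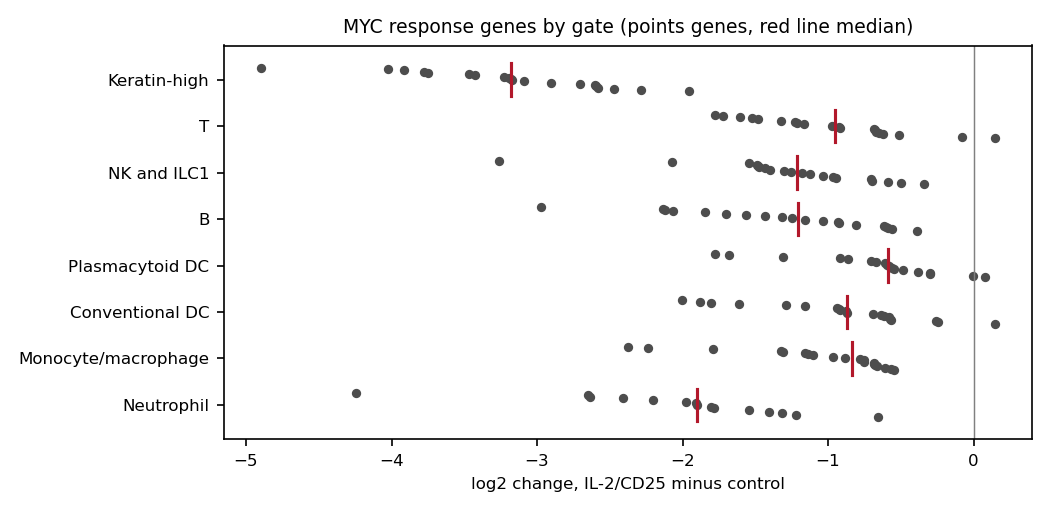
Change of the 20 MYC response genes (log2, IL-2/CD25 minus control, edgeR) in each gate on the counts as deposited, 1 point per gene. Points lie below 0 in keratin-high cells, where the median is -3.18, and the immune gates lie closer to 0.

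Genes around RAS split in both directions, and in keratin-high cells the split depended on scaling. Over all genes of that gate 34.1% were lower and 28% higher, and the share of called genes that were lower went from 54.9% to 27.8% under scaling by summed UMIs alone. Of 16 MAPK response genes, which ERK signalling switches on, 9 were lower and 2 higher in keratin-high cells, and 4 lower and 5 higher under scaling by summed UMIs alone. Etv4, an ETS factor, went from 50.5 to 14.6 CPM (log2 change -2.58), Dusp6, an ERK phosphatase, from 204.5 to 66.6 CPM (-2.41), and Spry4, a feedback inhibitor, from 34.4 to 12.2 CPM (-2.30), while the immediate early gene Egr1 went from 148 to 1610 CPM (2.64). The RAS family list had 7 of 11 lower and 1 higher, with Rap2b at 104 against 53.7 CPM (-1.76) and Rala at 169 against 115 CPM (-1.36), and 2 lower and 5 higher under the other scaling. Of 26 RAS regulators, 9 were lower and 6 higher, near the share over all genes, and 2 and 16 under the other scaling. Gab1, a docking protein of receptor tyrosine kinases, went from 0.928 to 34.0 CPM (4.40). Of 17 RAS effectors, 5 were lower and 5 higher (2 and 10 under the other scaling), also near that share, and of 11 MYC network genes, 4 and 2 (3 and 5). In that network MAX, the partner of MYC, was lower (49.6 to 33.5 CPM, -1.37) and its competitor Mxd4 higher (35.7 to 143 CPM, 1.20).

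In T cells and NK cells, more RAS regulators were called higher than lower in treated samples. Of 23 RAS regulators measured, 10 rose and 4 fell in T cells, and 7 rose and 1 fell in NK cells, where 22.3% of all genes rose and 24.9% fell in T cells and 20% each way in NK cells. Rasgrp1, the exchange factor that loads RAS with GTP below the T cell receptor, went from 88.6 to 189.5 CPM in T cells (log2 change 0.96), and Rasgrp2, its relative that acts on RAP, from 99.3 to 216 CPM in NK cells (1.08). Of the MAPK response list, 2 of 14 rose and 6 fell in T cells and 2 of 12 rose and 7 fell in NK cells. After the subtraction from every gene the counts were 3 higher and 1 lower of 11 in T cells and 2 higher and 3 lower of 10 in NK cells, so the balance in T cells turned. The share of all genes called in that setting is not given here, and whether the turn is particular to the list was not tested. Among those lower on the deposited counts, Ier3, an early response gene, went from 95.1 to 9.51 CPM in T cells (-3.43) and from 102 to 5.6 CPM in NK cells (-4.20), and Ccnd1, which encodes cyclin D1, from 26.3 to 3.83 CPM in T cells (-2.97). Spry2, a feedback inhibitor of this pathway, rose from 16.6 to 79.6 CPM in T cells (2.37) and from 58.7 to 192 CPM in NK cells (1.5), and Dusp5, a nuclear ERK phosphatase, from 120 to 371.5 CPM in T cells (1.48). Rap1b, a RAS relative that acts on integrins, rose from 292 to 735 CPM in NK cells (1.27). Mxd1, which competes with MYC for MAX, rose from 70.9 to 166 CPM in T cells (1.11). In the other immune gates more RAS regulators were also called higher than lower. B cells had 6 higher and 1 lower of 20, where 14.5% of all genes rose and 19.4% fell. Plasmacytoid dendritic cells had 1 and 0 of 19 (8.62 and 11.6% of all genes) and conventional ones 10 and 1 of 23 (25 and 25.8%). Monocytes and macrophages had 7 and 2 of 21 (26.9 and 26%) and neutrophils 5 and 2 of 16 (24.7 and 28%). The higher calls in plasmacytoid dendritic cells, monocytes and neutrophils were thus near the share over all genes.

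The genes whose pattern was most like each member were sought over 59 gate-by-sample sums of at least 20 cells, by Pearson's r of log2(CPM + 1) among 6982 genes. For Nras these were Cdkn2a (0.876), Plat (0.872), Hmga2 (0.864), Prkg2 (0.863) and R3hdml (0.852), and for Myc they were Cad (0.827), Cdkn2a (0.818), Cdh17 (0.817), Ruvbl2 (0.810) and R3hdml (0.802). Nras and Myc had an r of 0.781 with each other. For Hras they were Psmc1 (0.921), Ak6 (0.907), Uqcr11 (0.900), Ndufab1 (0.895) and Txnl1 (0.895). The sums share libraries, and the keratin-high cells stand apart in many genes at once. Across thinned control keratin-high cells the genes nearest to Hras were Rps27l (0.304), Nhp2 (0.284), Timm13 (0.279), Tubb6 (0.267) and Bax (0.255), among 4759 genes, and after Npm1 those near to Nras included C1qbp (0.354), Isyna1 (0.309) and Hspd1 (0.307), and those nearest to Myc were C1qbp (0.355), 2410006H16Rik (0.338), Rpl3 (0.328) and Rpl4 (0.324).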

How the data were processed

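The 7 libraries were 10x 3′ single-cell RNA-seq, and the deposited values are raw UMI counts per gene and barcode, per the file headers. Reads went through Cell Ranger 7.0.0 and bcl2fastq 5.0.1 per the submitters' processing notes. The genome build is not given in the sources used here. Cells with at least 500 UMIs, 200 genes and under 20% mitochondrial UMIs were kept. Marker gates needed few UMIs of lineage genes (for example at least 2 of Cd3d, Cd3e and Cd3g for T cells), with thresholds chosen after seeing the data. The members and gene lists were chosen with earlier results of these data known. Counts were summed per sample and gate of at least 20 cells and tested with edgeR 4.0.16 (R 4.3.3; quasi-likelihood, TMM, filterByExpr) at an adjusted p of 0.05 over all genes of the gate, after tests on simulated data, with DESeq2 1.42.0 as an alternative. From each list, up to 3 genes per direction were eligible for naming, by size of change, past that threshold, at 20 CPM or more in 1 group and without overlap between groups. Intervals and limits from counts cover counting error at the 95% level only. Free RNA of keratin-high cells was estimated from Krt8 and Krt18 UMIs.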

Additional observations from a re-analysis of the deposited data

Results flagged for a closer look

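Myc in the NK cell and ILC1 gate of treated sample 1 stood at 40.1 CPM, apart from the other 3 treated samples at 25.7 to 27.5 CPM. The gap took 0.874 of the whole range of the 4 samples, above the 95% critical value of Dixon's test. It was the 1 such case in 24 sets of 4 treated values (3 genes in 8 gates or sums), and chance gives about 1 in 20.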

How the results depend on the processing

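Subtracting free RNA of keratin-high cells took the number of immune gates with a lower call from 7 to 0 for Nras and for Myc. This held whether the subtraction was applied to the members or to every gene. Myc was tested in 5 gates only, since the low-count filter removed it in plasmacytoid dendritic cells and neutrophils. Applied to the members, the log2 changes that turned were, for Nras, 1.11 in T, 0.96 in NK, 3.16 in B, 0.75 in plasmacytoid dendritic, 1.14 in conventional dendritic, 0.58 in monocyte and 1.06 in neutrophil gates, and for Myc 0.99 in T, 1.13 in B, 2.53 in conventional dendritic and 0.0082 in monocyte gates. Applied to every gene, they were for Nras 1.04, 0.90, 3.06, 0.69, 1.08, 0.53 and 0.95 in the same order, and for Myc 0.92 in T, 1.04 in B and 2.47 in conventional dendritic gates. In both settings subtracted counts below 0 were set to 0. For Myc this included conventional dendritic cells of control samples 1 and 3 and T cells of control sample 3. Hras turned to 0.079 in NK cells with no keratin UMI. Its calls in NK cells and plasmacytoid dendritic cells were also lost by DESeq2, under scaling by summed UMIs and when single samples were left out.

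Over all cells, leaving out 1 sample gave differences of -1773 to -1036 CPM for Nras, -119.5 to -66.7 CPM for Hras and -1212 to -784.5 CPM for Myc, where the exact permutation test cannot reach 0.05. Control keratin-high Nras was 3181 CPM with at least 20 keratin UMIs, 2833 with at least 5, 3419 in cells with no Ptprc UMI and 3181 with keratin of at least 1000 CPM. Myc was 2037 CPM with at least 5 keratin UMIs and 2510 in cells with no Ptprc UMI. The mean r of Nras and Myc was 0.872 on raw UMIs and 0.716 at 5000 UMIs per cell. With leave-one-out in the gates, 54 of 54 Nras, 54 of 54 Myc and 43 of 54 Hras changes kept direction and call. Under scaling by summed UMIs, lower calls were 29.0 to 45.9% of all calls in the immune gates, against 49.1 to 57.3%. Gene calls fell from 6576 to 2915 in T, 5387 to 1766 in NK, 3283 to 1175 in B, 1816 to 242 in plasmacytoid and 5483 to 2493 in conventional dendritic gates among cells with no keratin UMI, and to 3545 in NK without control 2, 1921 in B without control 3 and 1210 in plasmacytoid dendritic cells without control 1. With the replicate block 23 of 24 member changes kept their call (not Hras in plasmacytoid dendritic cells), and pair correlations of -0.0577 to 0.156 over 23 pairs do not show that numbers pair samples. The subtraction on every gene, the keratin CPM gate and the scaling by summed UMIs were chosen after seeing the data. Depth limits Myc in treated neutrophils and plasmacytoid dendritic cells.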

Other observations

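Gates with too few control cells for a test were read in treated samples 2 and 3, those with at least 20 such cells. Endothelial cells, which line the liver's blood vessels, held 144 and 130.0 CPM of Nras, 77.5 and 49.7 CPM of Hras and 0 and 11.5 CPM of Myc. Their Myc came from 0 and 3 UMIs. Hepatocyte-like cells held 48.9 and 36.3 CPM of Nras, 152 and 117 CPM of Hras and 4.89 and 5.19 CPM of Myc. Nras there came from 10 and 14 UMIs and Myc from 1 and 2, close to the limit of detection. In hepatocyte-like cells Hras stood above and Nras below every treated value of the dendritic, T, B and NK gates, with 2 samples and no test.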
